A study of Mus musculus with 18 samples.

Results

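The fasting response of mouse liver nuclei was compared between nuclei enriched for hepatocytes and the nuclei left behind, gene by gene. The quantity described is a difference of differences: the change from fed to fasted in hepatocyte nuclei minus the change from fed to fasted in the remaining nuclei. It used 12 of the 18 samples of the series, and 14322 of the 20105 genes in the deposited count table had enough counts to be tested. Female HEP-INTACT mice, whose hepatocyte nuclei carry a tag, were either fed ad libitum or fasted overnight, for 16 h beginning at zeitgeber time 12 (lights off), and fed controls were taken at the same hour. From each of 3 fed and 3 fasted mice, tagged nuclei of fresh liver were pulled down by immunoprecipitation (IP), and the supernatant (the non-hepatocyte nuclei in the labels) was kept, which gives 4 groups of 3 libraries. All 4 groups carry the tag; the sources used here do not give age, strain background or the promoter that drives the tag. RNA was total nuclear RNA sequenced without poly-A selection, so unspliced transcripts are part of every value.

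The liver is the organ that switches most between storing and releasing fuel. In the fed state insulin drives hepatocytes to make fatty acids and cholesterol through the SREBP transcription factors; in fasting, glucagon, glucocorticoids and fatty acids acting on PPAR alpha turn on fatty acid oxidation, ketone body production and glucose release. Endothelial cells, Kupffer cells (the resident macrophages), stellate cells and lymphocytes share the same blood supply and see the same hormones, but lack most of the hepatocyte's metabolic programme. A difference between fractions therefore asks which part of the response belongs to one kind of nuclei more than to the other.

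Levels are given as CPM, counts divided by library size and scaled over the 12 libraries, and per-library values are given in the order A, B and C, the letters of the count table. A fasting change is the log2 ratio of fasted to fed, and the log2 difference is the change in IP minus that in supernatant, so a positive value means a stronger rise, or a weaker fall, in IP. Errors of log2 values are standard errors over 3 libraries per group, and all adjusted p come from edgeR's quasi-likelihood test with Benjamini-Hochberg adjustment over all 14322 genes. A gene is called at an adjusted p under 0.05. Each library was also left out in turn, and a call said to end without any of several libraries was lost in each of those single leave-outs. Total counts ran from 25675086 to 54434263 per library.

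The fractions were checked against marker genes first. All 24 hepatocyte markers were higher in IP of fed mice, and all 22 endothelial, all 20 Kupffer cell and macrophage and all 18 stellate cell markers were higher in supernatant. The 24 hepatocyte markers summed to 22765 to 32476 CPM in IP of fed mice and to 897 to 1452 CPM in their supernatant. In fasted mice the sums were 30025 to 38346 CPM in IP and 1376 to 2207 CPM in supernatant. The median hepatocyte marker stood in supernatant at 3.25% of its IP level in fed and at 4.66% in fasted mice, so the supernatant holds some hepatocyte RNA in both states. Kupffer cell markers summed to 7881 to 10489 CPM in supernatant of fed and 6188 to 8376 CPM in that of fasted mice, against 109 to 138 CPM in any IP library. The endothelial sum was 3571 to 4645 CPM in supernatant of fed and 4285 to 5856 CPM in that of fasted mice, and it was 94.8 to 185 CPM in IP of fed and 47.2 to 112 CPM in IP of fasted mice. Every one of these hepatocyte, Kupffer cell and endothelial ranges overlapped between the feeding states of a fraction. The lymphocyte sum in supernatant did not, at 3099 to 4155 CPM in fed and 2467 to 2983 CPM in fasted mice. Nor did the cholangiocyte sum in IP, at 711 to 716 CPM in fed and 273 to 343 CPM in fasted mice. The neutrophil and erythroid sum in IP was also lower in every fasted than in every fed library. A bulk sample cannot tell fewer nuclei of a type from less RNA per nucleus.

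**Figure D1:**
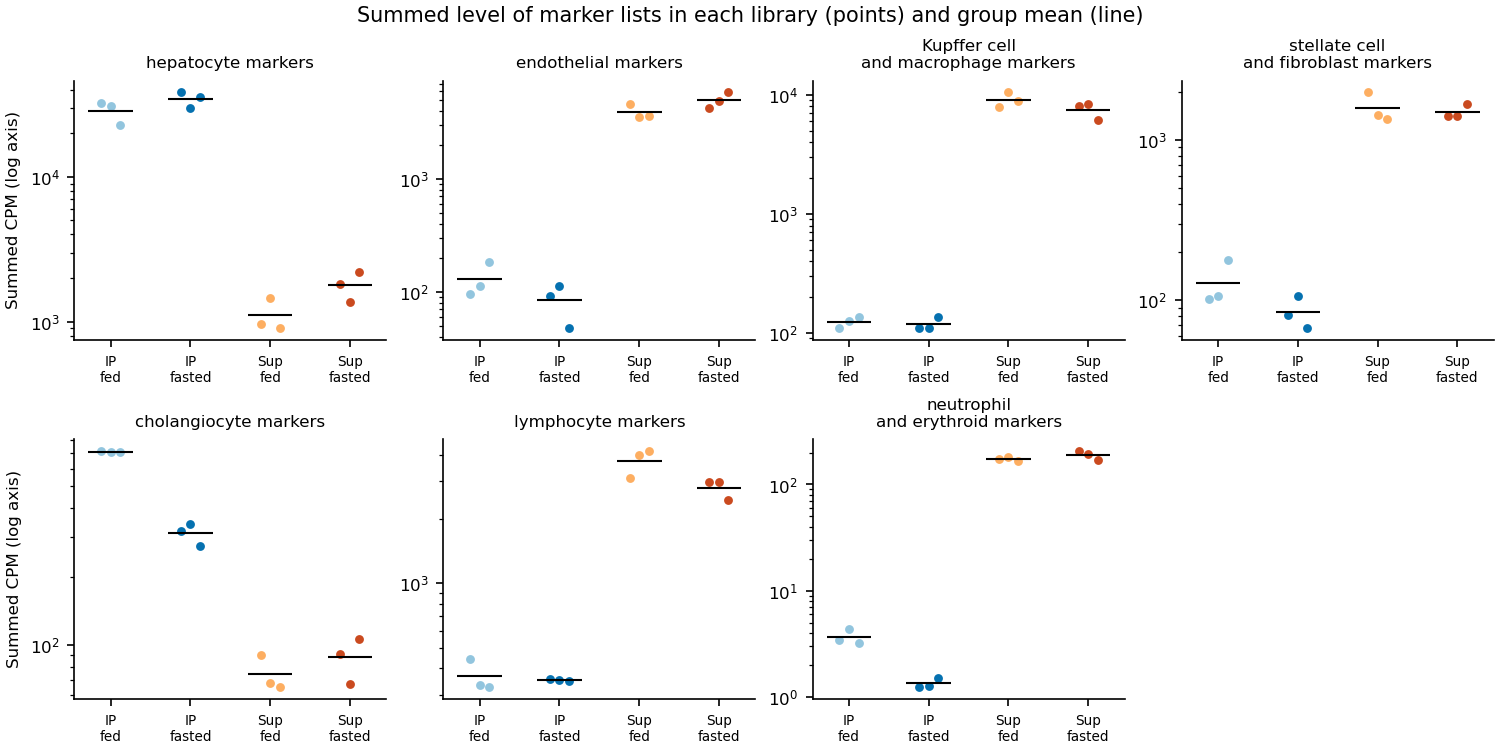
Summed CPM (log axis) of the 7 marker lists in each library (points) with the group mean (line), for IP and supernatant (Sup) of fed and fasted mice. Hepatocyte markers are high in IP, and endothelial, Kupffer cell, stellate cell and lymphocyte markers are high in supernatant, in both feeding states. Cholangiocyte markers, unlike the other non-hepatocyte lists, are higher in IP, at 711 to 716 CPM in fed and 273 to 343 CPM in fasted mice.

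Fasting changed far more genes past the threshold in IP than in supernatant. In IP 1770 genes were called higher (12.4% of those tested) and 2479 lower (17.3%). In supernatant 305 were called higher (2.13%) and 256 lower (1.79%). The difference between fractions itself was called for 1367 genes, 532 of them higher (3.71%) and 835 lower (5.83%), and 745 of the 1367 had a log2 difference of at least 1 in size. The median over all tested genes was -0.08 for the difference, -0.07 in IP and -0.01 in supernatant, all log2. The count of called differences was 357 with both libraries of fasted mouse A left out and 771 with its supernatant library alone left out.

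The called genes fell into 6 patterns by how each fraction moved. The largest held 707 genes that fell in IP with a median log2 change of -1.07 while their median change in supernatant was 0.03. A further 474 genes rose in IP, with a median of 0.92 in IP and -0.06 in supernatant. In 63 genes the rise was in supernatant (median 0.98 there and -0.14 in IP), and in 25 the fall was in supernatant (median -0.80 there and 0.15 in IP). In 34 genes both fractions were called and moved in opposite directions, 24 of them lower in IP and higher in supernatant and 10 the reverse. For the last 64 genes the difference was called although neither fraction's own change was. These patterns are defined by the calls, so their medians are descriptions. Both fractions moved the same way, past the threshold in each, in 117 genes that rose and 133 that fell, and the difference was called in 27 of these.

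**Figure D2:**
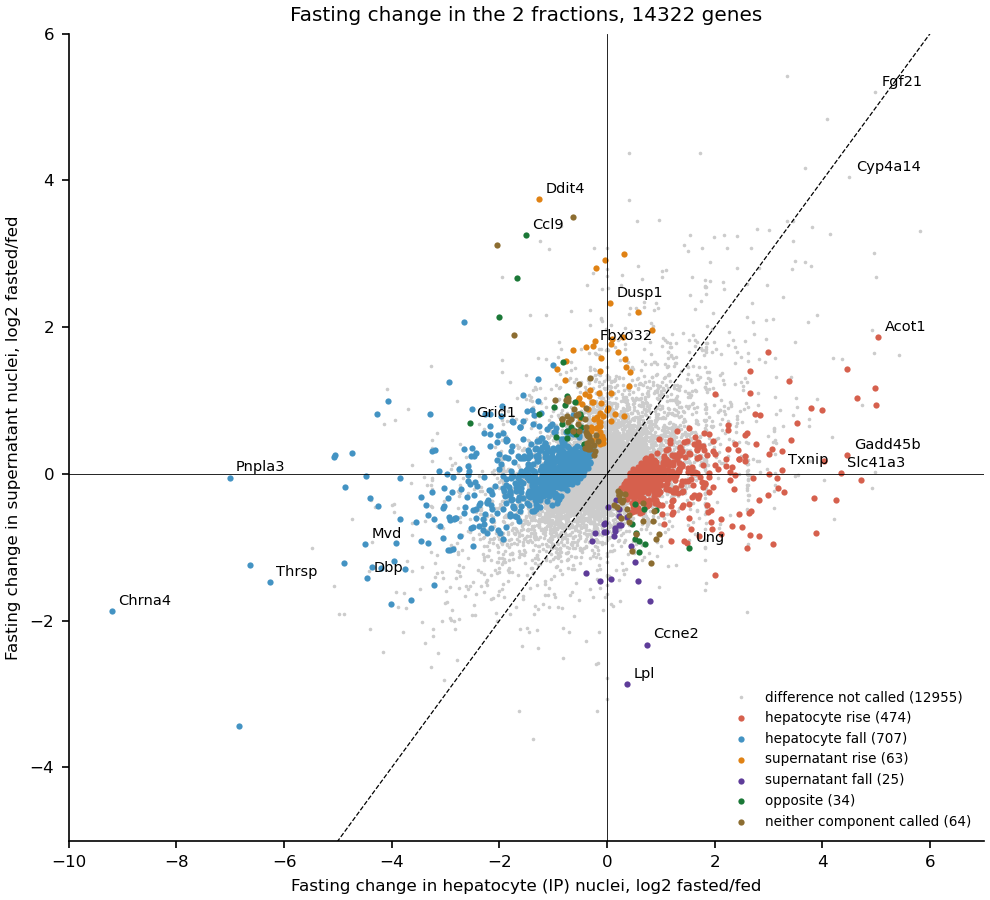
Fasting change in supernatant (vertical axis, log2 fasted/fed) against fasting change in IP (horizontal axis, log2 fasted/fed) for the 14322 tested genes; colours give the 6 patterns of genes with a called difference, grey the 12955 without one, and the dashed line marks equal change. Most coloured points lie along the horizontal axis, where the change in supernatant is small, with 707 on the falling and 474 on the rising side.

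Lipid-making genes were among those with the largest differences of the genes that fell in hepatocyte nuclei, beside genes of other functions such as Chrna4, Fabp5, Mup3 and Igfbp5. Pnpla3 (chr15:84167816-84189521, + strand), a lipid droplet protein of hepatocytes whose gene is switched on by feeding through SREBP-1c, was at 119, 306 and 31.3 CPM in IP of fed mice and at 1.87, 0.860 and 0.827 CPM in IP of fasted mice. In supernatant it was at 10.4, 12.6 and 7.53 CPM fed and 12.1, 8.76 and 8.65 CPM fasted. The IP groups did not overlap and the supernatant groups did, and after fasting the level in supernatant lay above that in IP. Its log2 difference was -6.96 ± 1.06 (adjusted p = 0.00188), with -7.01 ± 1.02 in IP and -0.05 ± 0.27 in supernatant.

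Thrsp, which encodes a nuclear protein that promotes fatty acid synthesis, was at 91.2, 114 and 13.9 CPM in IP of fed mice and near 1 CPM in all 3 IP libraries of fasted mice (0.881 to 1.02). Its supernatant level was 4.76% of IP fed and 134% fasted. Its log2 difference was -4.79 ± 1.36 (adjusted p = 0.0246), and the call ended when any of 5 of the 12 libraries was left out. Scd1, the desaturase that makes oleate, went from 214, 645 and 67.0 CPM to 8.92, 16.3 and 5.91 CPM in IP, against 68.2, 136 and 58.7 CPM to 38.2, 44.6 and 31.2 CPM in supernatant. Its log2 difference was -3.67 ± 1.11 (adjusted p = 0.0296), a call that ended without any of 7 libraries. In these lipogenic genes IP library C of fed mice was the lowest of its group.

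Of the 24 tested genes of fatty acid synthesis and glycolysis, 9 had a called lower difference and 0 a higher one, with a median of -0.99. In IP 17 were called lower and 1 higher (median -1.11); in supernatant 0 were called in either direction by edgeR (median -0.09), with 3 at an unadjusted p under 0.05. Over all tested genes, here and for the later lists, the difference was called higher for 3.71% and lower for 5.83%. In IP those shares were 12.4% and 17.3%, and in supernatant 2.13% and 1.79%. Beyond the 3 genes above, which lead the list by size, members were chosen after their values were seen. Srebf1, the gene of SREBP-1, had a log2 difference of -2.95 ± 0.39 (adjusted p = 0.000948), with IP at 321, 528 and 280 CPM fed and 38.3, 45.4 and 25.1 CPM fasted. Acly, which supplies cytosolic acetyl-CoA, had a difference of -2.82, and Acaca, the first committed enzyme of fatty acid synthesis, one of -1.15. Fasn, the fatty acid synthase, fell in IP by 3.75 on the log2 scale, and its change in supernatant, -1.29 ± 0.40, did not pass the test (adjusted p = 0.18). Leaving out IP library B of fed mice took the count of called members to 5, the lowest of the 12 leave-outs.

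The cholesterol genes moved together. Over all tested genes the difference was called higher for 3.71% and lower for 5.83%. Of 26 tested genes of cholesterol synthesis and uptake, 14 had a called lower difference and 0 a higher one (median -1.66), 23 were called lower and 1 higher in IP (median -2.60), and 0 higher and 1 lower in supernatant (median -0.67). All but 2 of the 26 differences were negative. In supernatant 24 of the 26 changes were negative as well, and 13 of the 26 had an unadjusted p under 0.05 by edgeR. Mvd (chr8:122433596-122443422, - strand), the decarboxylase that completes isopentenyl diphosphate in the mevalonate pathway, was at 30.1, 36.9 and 22.6 CPM in IP of fed and 1.13, 2.08 and 0.636 CPM in IP of fasted mice. Its supernatant levels were 3.06, 2.72 and 2.68 CPM fed and 1.73, 1.30 and 1.30 CPM fasted. Neither fraction's groups overlapped, but IP went from well above supernatant to about its level: supernatant was at 9.44% of IP fed and 113% of IP fasted. This gave a log2 difference of -3.53 ± 0.53 (adjusted p = 0.00157), with -4.49 ± 0.51 in IP and -0.96 ± 0.15 in supernatant, the latter not called (adjusted p = 0.133).

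Insig1, the sterol sensor that holds SREBP in the endoplasmic reticulum, was at 277, 554 and 233 CPM in IP of fed and 15.5, 42.7 and 11.6 CPM in IP of fasted mice, with a log2 difference of -2.98 ± 0.76 (adjusted p = 0.0189). Its supernatant level was 4.83% of IP fed and 38.2% fasted. Its call ended without IP library A of fasted mice. Fdps, which makes farnesyl diphosphate, was at 104, 122 and 78.3 CPM in IP of fed and 3.66, 9.88 and 2.83 CPM in IP of fasted mice, and its difference was -2.90 ± 0.65 (adjusted p = 0.011). Supernatant held 5.64, 8.09 and 3.91 CPM of Fdps fed and 2.64, 2.34 and 2.27 CPM fasted. The median cholesterol gene stood in supernatant of fed mice at 9.64% of its IP level, above the 3.25% of the hepatocyte markers. The part of hepatocyte RNA in the supernatant changes of these genes was not tested.

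**Figure D3:**
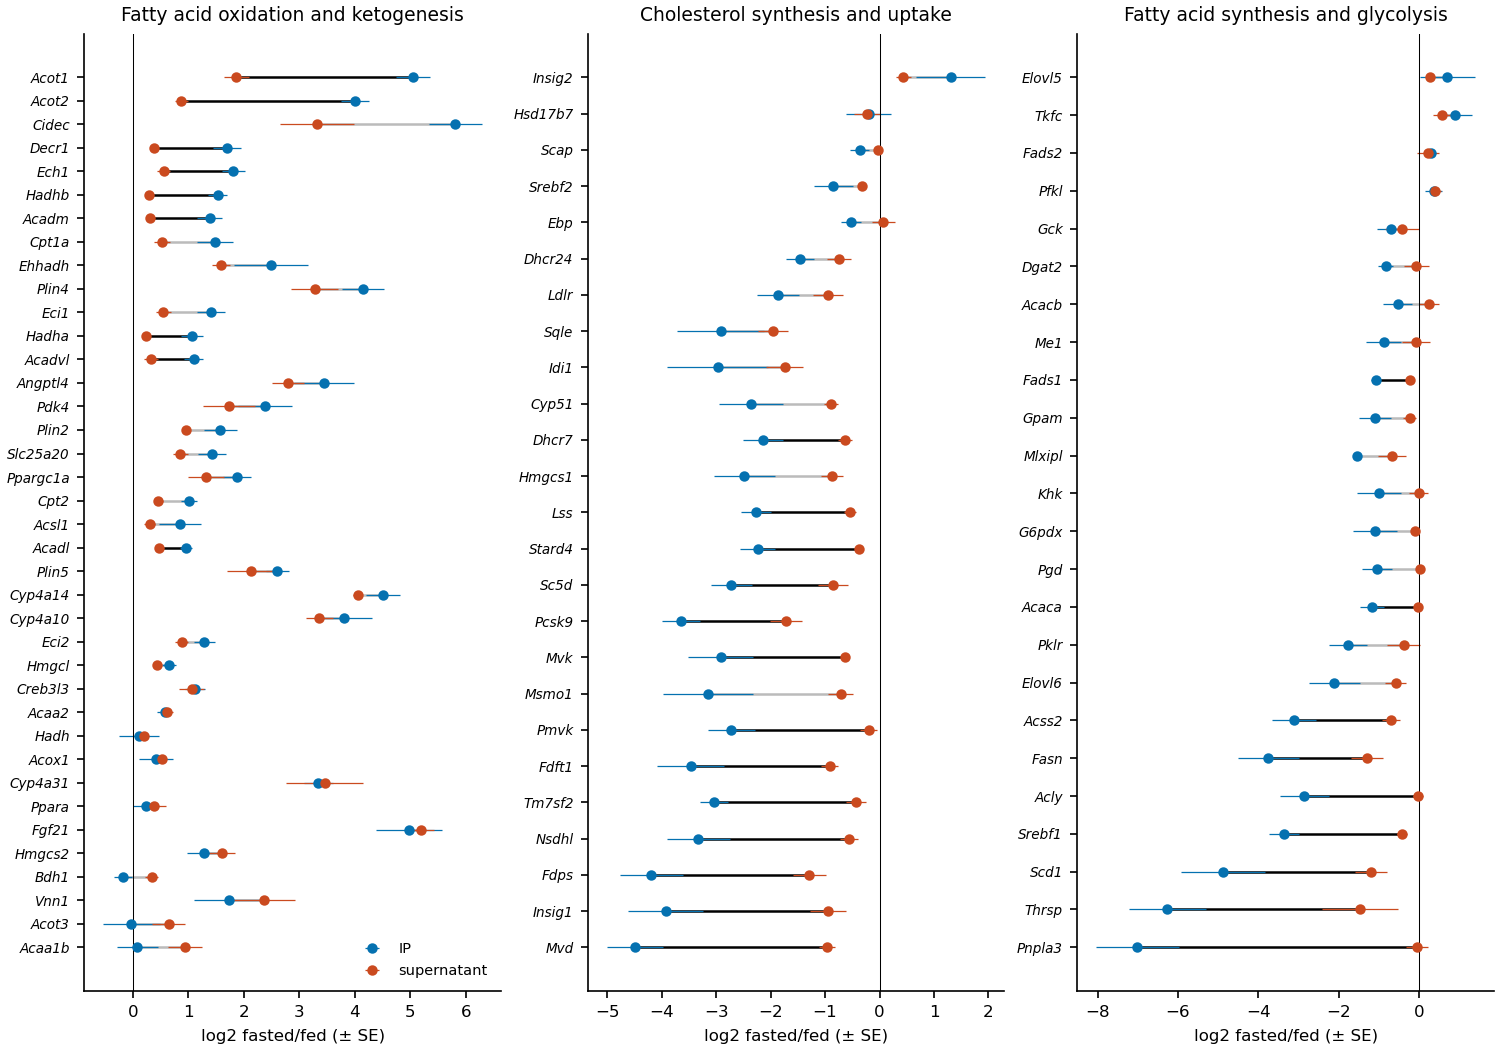
Log2 fasting change (± SE, 3 libraries per group) of tested genes of 3 lists in IP (blue) and supernatant (orange), ordered by the difference; black bars join the fractions of genes with a called difference, grey bars those without. Oxidation genes sit to the right of 0 in nearly every row of both fractions, while most cholesterol genes and the lower rows of the synthesis list lie far to the left in IP and nearer to 0 in supernatant.

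Promoters of the listed genes that carried the findings were read for short motifs, because members of one list moved together. RefSeq promoters of the GRCm38.p6 build matched 10238 of the 14322 genes, with start sites within 100 bases, and the 250 bases before the start were searched on both strands. The motifs were the CCAAT box (CCAAT, bound by NF-Y, a partner of SREBP), a sterol element (TCACNCCAC), the E-box of clock factors (CACGTG), the D-box (TTATGTAA), a FOXO element (TGTTTAC), the CRE (TGACGTCA) and the AP-1 element (TGANTCA). No motif of the set contains another in full. Mvd is shown as the cholesterol gene with the largest difference; its window is chr8:122443423-122443672 on the - strand, and capitals mark the CCAAT boxes, in either orientation, that begin 60 and 27 bases before the start.

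Mvd: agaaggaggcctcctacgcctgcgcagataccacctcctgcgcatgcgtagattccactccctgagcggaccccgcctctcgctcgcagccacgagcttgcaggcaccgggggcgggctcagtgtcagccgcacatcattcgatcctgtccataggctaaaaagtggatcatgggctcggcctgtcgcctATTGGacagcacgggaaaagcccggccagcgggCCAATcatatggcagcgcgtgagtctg

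The CCAAT box stood in 16 of the 18 cholesterol genes with a matched promoter, in 8 of the 9 with a called difference, and in 36.3% of all promoters. Among genes that fell in IP it stood in 45.9% of 492 promoters and among genes that rose in IP in 35.0% of 340. The sterol element as spelled was found in 1 of the 18 cholesterol promoters and in 0.957% of all. The CRE, the site of the glucagon effector CREB, stood in 5.29% of the promoters of genes that rose in IP, in 1.22% of those that fell and in 2.65% of all. These matches describe the letters of the windows and were not tested.

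Other genes that fell in IP included some of the largest differences of the table. Chrna4 (chr2:181022311-181039177, - strand), which encodes a nicotinic acetylcholine receptor subunit, was at 79.4, 159 and 28.9 CPM in IP of fed mice and at 0.028, 0.340 and 0 CPM in IP of fasted mice. Its supernatant level was 1.99% of IP fed, beside 3.25% for the median hepatocyte marker, and 388% of the trace IP level fasted. The part of hepatocyte RNA in it was not tested. Its log2 difference was -7.32 ± 1.57 (adjusted p = 0.0119), and the call ended without supernatant library A of fasted mice. Over the alternative fits the difference ran from -10.9 to -5.56. Fabp5, a fatty acid binding protein, was at 1.61, 12.4 and 5.13 CPM in IP of fed and 0.138, 0.280 and 0.095 CPM in IP of fasted mice, while its supernatant groups overlapped (1.07 to 1.80 fed, 1.07 to 2.53 fasted). Mup3, a major urinary protein gene of a family of near-identical copies and therefore uncertain, went from 97.6 to 105 CPM down to 3.18 to 7.22 CPM in IP, with a difference of -3.82 ± 0.53 (adjusted p = 0.000887). Igfbp5, an IGF binding protein, had a difference of -3.79 ± 0.81 (adjusted p = 0.0069), with 8.26 to 11.8 CPM in IP of fed and 0.286 to 0.980 CPM in IP of fasted mice.

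Genes that rose in hepatocyte nuclei with no like change in the rest were led by Slc41a3 (chr6:90604880-90646412, + strand), a magnesium transporter of the SLC41 family. It was at 1.34, 1.59 and 1.91 CPM in IP of fed and 47.4, 32.8 and 18.2 CPM in IP of fasted mice, and at 16.0, 17.5 and 15.3 CPM in supernatant of fed and 18.9, 16.9 and 13.5 CPM in that of fasted mice. The IP groups lay far apart, on both sides of a supernatant level that hardly moved. The resulting log2 difference was 4.33 ± 0.45 (adjusted p = 0.000415). Mtl5, a gene better known from testis, rose from 5.20, 1.5 and 2.52 CPM to 62.6, 36.1 and 58.3 CPM in IP with supernatant at 3.26 to 4.89 CPM throughout, a difference of 3.86 ± 0.60 (adjusted p = 0.00157).

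Cbfa2t3, a transcriptional corepressor best known in blood cells, was at 2.49 to 5.52 CPM in IP of fed mice against 62.5 to 112 CPM in their supernatant. In IP of fasted mice it was at 62.3, 70.6 and 21.8 CPM, and in their supernatant at 58.6 to 90.9 CPM. The fractions differed by 4.17 ± 0.72 (adjusted p = 0.00239). Summed Kupffer cell markers in IP were at 111 to 138 CPM fed and 109 to 138 CPM fasted, though 2 members of that list, Cd68 and Fcer1g, had a called higher difference; the part of other nuclei in the level of Cbfa2t3 was not tested. Dusp8, a phosphatase of stress-activated MAP kinases, was at 0.133 to 0.440 CPM in IP of fed and 5.58 to 10.7 CPM in IP of fasted mice, a difference of 3.61 ± 0.54 (adjusted p = 0.0027).

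Many fatty acid oxidation genes rose in both fractions, and 9 rose more steeply in IP. Of 38 tested genes of fatty acid oxidation and ketogenesis, 9 had a called higher difference and 0 a lower one (median 0.55), beside 3.71% and 5.83% of all tested genes. In IP 32 were called higher and 0 lower (median 1.44), and in supernatant 19 higher and 0 lower (median 0.86). The count of called differences ranged from 6 to 13 over the single-library leave-outs, with 6 without IP library B of fed mice. Acot1 (chr12:84009502-84017669, + strand), a cytosolic acyl-CoA thioesterase and PPAR alpha target, was at 1.5, 2.63 and 1.49 CPM in IP of fed and 49.8, 71.7 and 57.7 CPM in IP of fasted mice. In supernatant it was at 3.35, 2.42 and 2.10 CPM fed and 8.21, 10.8 and 9.82 CPM fasted. Both fractions rose without overlap, IP from below to above supernatant. Their log2 difference was 3.18 ± 0.38 (adjusted p = 0.000585), with 5.04 ± 0.31 in IP and 1.86 ± 0.23 in supernatant.

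Acot2, the mitochondrial relative of Acot1, rose in IP from 0.239 to 0.462 CPM up to 5.72 to 6.14 CPM and in supernatant from 1.42 to 1.88 CPM up to 3.01 to 3.20 CPM, a difference of 3.12 ± 0.28 (adjusted p = 0.000415). The Acot genes lie in a cluster of close copies, so reads shared between them are uncertain. Decr1, a mitochondrial reductase needed to oxidise unsaturated fatty acids, went from 140, 103 and 90.6 CPM to 403, 402 and 278 CPM in IP and from 20.4 to 22.8 CPM up to 27.2 to 29.7 CPM in supernatant. Its difference was 1.32 ± 0.26 (adjusted p = 0.00739). The other 6 called members were enzymes of fatty acid oxidation, chosen after their values were seen: Ech1 at 1.25, Hadhb at 1.2, Acadm at 1.07, Hadha at 0.83, Acadvl at 0.77 and Acadl at 0.49 (log2 differences).

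Some genes of this list with very large fasting changes had no called difference; they were chosen after their values were seen. Cyp4a14, a fatty acid omega-hydroxylase and classic PPAR alpha target, was at 127, 88.8 and 107 CPM in IP of fed and 2840, 2866 and 1622 CPM in IP of fasted mice. In supernatant it was at 4.53, 4.84 and 3.97 CPM fed and 74.8, 73.9 and 72.7 CPM fasted. Its fasting change differed between fractions by 0.45 ± 0.32 (adjusted p = 0.35), between 4.50 ± 0.31 in IP and 4.05 ± 0.08 in supernatant. Fgf21, the fasting hormone of the liver, was at 0.453 to 0.664 CPM in IP of fed and 8.90 to 34.1 CPM in IP of fasted mice, and at 0 to 0.027 CPM and 0.383 to 0.509 CPM in supernatant, with a difference of -0.22 ± 0.64 (adjusted p = 0.89). Supernatant held 4.13% of the IP level of Cyp4a14 fed and 3.02% fasted, and 2.51% of the IP level of Fgf21 fasted, beside 3.25% and 4.66% for the median hepatocyte marker. For Decr1 that share was 19.7% fed and 7.88% fasted, and for Acot1 140% and 16.1%. The part of hepatocyte RNA in the supernatant rises was not tested.

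**Figure D4:**
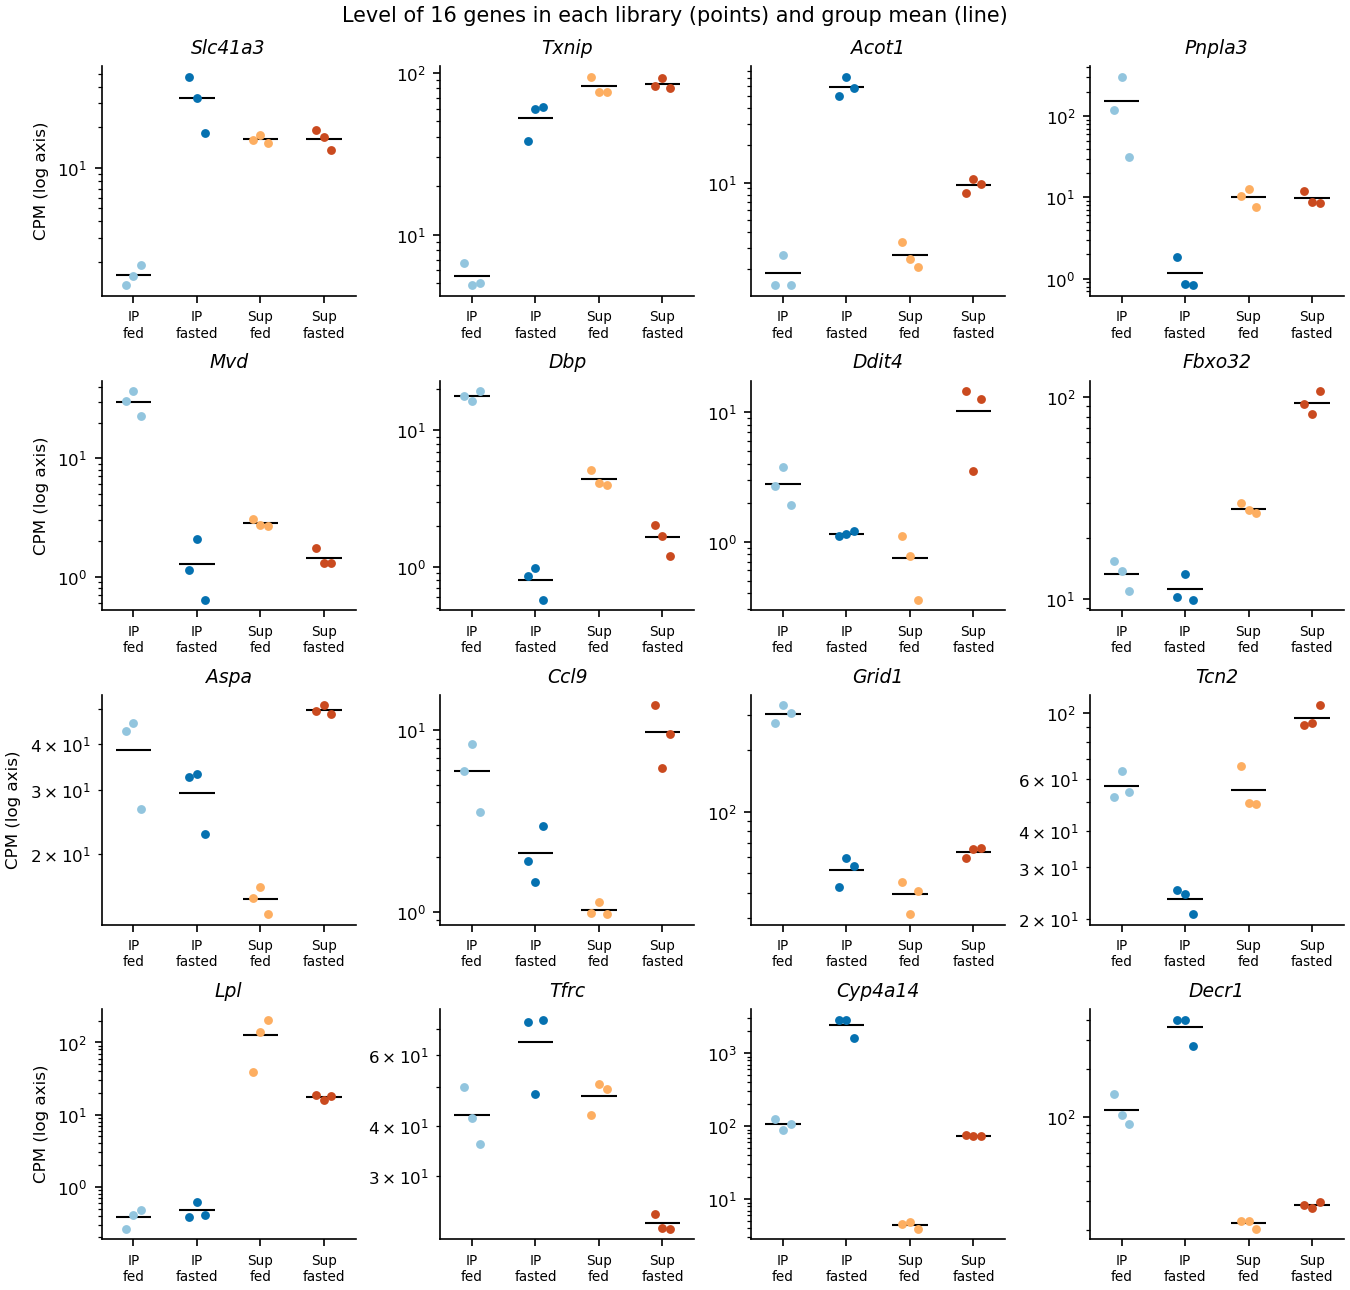
CPM (log axis, a separate scale in each panel) of 16 genes in each library (points) with the group mean (line), for IP and supernatant (Sup) of fed and fasted mice. Slc41a3, Txnip and Acot1 rise and Pnpla3, Mvd and Dbp fall mainly in IP. Ddit4, Fbxo32 and Aspa rise in supernatant, and Lpl falls there. Ccl9, Grid1, Tcn2 and Tfrc move in opposite directions. Cyp4a14 and Decr1 rise in both fractions, Decr1 less steeply in supernatant than in IP.

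Glucose production gave no called difference. Of 18 tested genes of gluconeogenesis and glycogen, 0 were called higher and 0 lower in the difference, 4 were higher and 4 lower in IP, and 1 was higher in supernatant. At an unadjusted p under 0.05, 7 of the 18 differed, and DESeq2 called 2 higher and 1 lower. With the mouse as a replicate block the difference was called higher for 1 and lower for 3 of them. Pck1, which encodes the cytosolic PEP carboxykinase, was at 1767, 868 and 257 CPM in IP of fed and 2367, 1389 and 2494 CPM in IP of fasted mice, and the overlapping groups gave -0.68 ± 1.0 for the difference (adjusted p = 0.629). This gene was chosen after its values were seen.

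Glucocorticoid and FOXO targets had called differences in both directions, beside 3.71% called higher and 5.83% called lower over all tested genes. Of 32 tested genes, 5 had a called higher difference and 4 a lower one (median -0.10), with 16 called higher and 3 lower in IP and 8 higher and 0 lower in supernatant. Those stronger in IP were led by Gadd45b (chr10:80930091-80932204, + strand), a stress-induced growth arrest gene. It was at 0.507, 0.498 and 0.212 CPM in IP of fed and 8.01, 5.94 and 12.9 CPM in IP of fasted mice, and at 1.40 to 2.10 CPM and 1.45 to 2.66 CPM in supernatant, whose groups overlapped. This made a log2 difference of 4.21 ± 0.57 (adjusted p = 0.00157).

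Txnip (chr3:96557957-96561857, + strand), an inhibitor of thioredoxin and of glucose uptake, was at 6.67, 4.85 and 4.99 CPM in IP of fed and 37.6, 59.5 and 61.5 CPM in IP of fasted mice. Supernatant held more of it in both states, 94.5, 76.5 and 75.8 CPM fed and 82.3, 93.0 and 80.3 CPM fasted. The log2 difference was 3.20 ± 0.30 (adjusted p = 0.000253), with 3.25 ± 0.27 in IP and 0.05 ± 0.12 in supernatant. Foxo1, the insulin-restrained transcription factor of the fasted hepatocyte, rose from 377 to 419 CPM up to 747 to 1423 CPM in IP and stayed between 217 and 254 CPM in all supernatant libraries, a difference of 1.30 ± 0.31 (adjusted p = 0.0165). That call ended when both libraries of fed mouse A, B or C were left out. Cdkn1a, which encodes the cell cycle inhibitor p21 and was chosen after its values were seen, had a difference of 3.03.

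Ddit4 (chr10:59949675-59951770, - strand), an inhibitor of mTORC1 induced by glucocorticoids, had the largest difference of the list and the reverse pattern. It was at 2.69, 3.76 and 1.91 CPM in IP of fed and 1.10, 1.14 and 1.21 CPM in IP of fasted mice. Supernatant went from 1.11, 0.780 and 0.355 CPM to 14.5, 3.48 and 12.6 CPM. The groups did not overlap in either fraction, and only the supernatant change was called. The log2 difference was -5.0 ± 0.84 (adjusted p = 0.00239), with -1.26 ± 0.28 in IP (adjusted p = 0.0809) and 3.74 ± 0.79 in supernatant (adjusted p = 0.00294). Dusp1, a MAP kinase phosphatase also induced by glucocorticoids, rose in supernatant from 21.5, 16.5 and 10.4 CPM to 124, 40.1 and 80.4 CPM, while IP stood at 13.1 to 46.8 CPM fed and 28.7 to 34.4 CPM fasted. Its difference of -2.27 ± 0.79 (adjusted p = 0.0463) lost its call without any of 10 of the 12 libraries. Fkbp5, a chaperone of the glucocorticoid receptor chosen after its values were seen, was higher in both fractions, by 1.5 ± 0.64 in IP and 3.05 ± 0.26 in supernatant, and the difference was not called (adjusted p = 0.122).

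The promoters of Gadd45b, Txnip and Ddit4 are shown for the size of their differences. With that of Mvd, these were the largest among named members of the cholesterol, fatty acid oxidation, clock, heat shock and glucocorticoid lists. A window was shown only if it held a searched motif. The windows are chr10:80929841-80930090 on the + strand for Gadd45b, chr3:96557707-96557956 on the + strand for Txnip and chr10:59951771-59952020 on the - strand for Ddit4. Capitals mark the motifs found: in Gadd45b an E-box that begins 185 bases before the start and CCAAT boxes at 139 and 100, in Txnip a FOXO element at 121 and CCAAT boxes at 137 and 102, and in Ddit4 CCAAT boxes at 170 and 137.

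Gadd45b: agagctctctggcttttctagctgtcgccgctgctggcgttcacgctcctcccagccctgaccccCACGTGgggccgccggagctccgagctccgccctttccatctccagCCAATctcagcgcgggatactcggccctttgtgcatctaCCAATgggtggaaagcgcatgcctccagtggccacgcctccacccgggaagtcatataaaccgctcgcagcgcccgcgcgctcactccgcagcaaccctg

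Txnip: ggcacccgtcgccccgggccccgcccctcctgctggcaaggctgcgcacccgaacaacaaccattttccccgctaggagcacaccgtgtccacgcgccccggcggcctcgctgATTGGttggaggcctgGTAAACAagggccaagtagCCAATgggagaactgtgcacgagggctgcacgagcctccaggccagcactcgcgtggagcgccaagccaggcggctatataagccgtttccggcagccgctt

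Ddit4: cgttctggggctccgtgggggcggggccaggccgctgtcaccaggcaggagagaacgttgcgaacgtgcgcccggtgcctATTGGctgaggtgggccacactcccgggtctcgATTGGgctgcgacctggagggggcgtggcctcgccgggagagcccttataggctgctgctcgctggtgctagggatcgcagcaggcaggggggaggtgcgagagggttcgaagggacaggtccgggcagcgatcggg

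The E-box stood in 8.09% of all promoters and the FOXO element in 2.13%. Of the 25 genes of the glucocorticoid and FOXO list with a matched promoter, 2 held the FOXO element as spelled and 15 a CCAAT box. All 3 windows hold CCAAT boxes, found in 36.3% of all promoters, and windows without any searched motif were not shown. A tie between the motif and the direction of change was not tested.

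Several clock genes fell more in IP. Over all tested genes the difference was called higher for 3.71% and lower for 5.83%. Of 20 tested genes, 1 had a called higher difference and 8 a lower one (median -0.65), 2 were called higher and 10 lower in IP, and 2 higher and 4 lower in supernatant. Dbp (chr7:45705247-45710203, + strand), a clock-controlled activator that binds D-boxes, was at 18, 16.5 and 19.4 CPM in IP of fed and 0.853, 0.980 and 0.572 CPM in IP of fasted mice. Supernatant went from 5.10, 4.09 and 3.97 CPM to 2.04, 1.69 and 1.2 CPM, without overlap in either fraction. The log2 difference was -3.04 ± 0.33 (adjusted p = 0.000479), with -4.46 ± 0.23 in IP and -1.41 ± 0.24 in supernatant. Dbp overlaps Sphk2 on the other strand over 14.9% of its span, and reads of the pair may not be separable.

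Per3, a period gene, went from 56.6 to 61.9 CPM down to 9.03 to 11.7 CPM in IP and from 20.9 to 27.4 CPM down to 13.2 to 16.7 CPM in supernatant, a difference of -1.79 ± 0.20 (adjusted p = 0.000646). Bhlhe41, a repressor of the clock's activators, fell in IP from 0.617 to 1.09 CPM to 0.028 to 0.160 CPM, with a difference of -2.80 ± 0.64 (adjusted p = 0.0234). That call ended without IP library B of fed mice, supernatant library A of fed mice or supernatant library C of fasted mice. In other clock genes, chosen after their values were seen, both fractions were called in the same direction: Per1, which is also a glucocorticoid target, was higher by 3.26 ± 0.69 in IP and 2.41 ± 0.54 in supernatant, and Nr1d1, which encodes the repressor REV-ERB alpha, was lower by 2.15 and 1.70 on the log2 scale. Nfil3 was called lower in IP (-0.59 ± 0.25) and higher in supernatant (0.98 ± 0.20).

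Genes whose fasting rise lay in supernatant were followed through their levels in both fractions. Fbxo32 (chr15:58175879-58214892, - strand), the FOXO-driven ubiquitin ligase known as atrogin-1, went from 29.8, 27.5 and 26.7 CPM to 91.8, 82.0 and 107 CPM in supernatant, with IP at 10.9 to 15.4 CPM fed and 9.92 to 13.3 CPM fasted. The rise was seen in all 3 fasted supernatant libraries, above any other library. Its log2 difference was -2.0 ± 0.23 (adjusted p = 0.000675). Aspa, the aspartoacylase that releases acetate from N-acetylaspartate, went from 15.1, 16.2 and 13.7 CPM to 49.3, 51.1 and 48.5 CPM in supernatant and from 43.3, 45.6 and 26.5 CPM to 32.6, 33.1 and 22.6 CPM in IP. The order of the fractions turned: supernatant was at 39.0% of IP fed and at 169% fasted. The difference was -2.11 ± 0.32 (adjusted p = 0.00164).

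Slco2b1, an organic anion transporter, rose in supernatant from 47.5, 36.2 and 22.6 CPM to 121, 108 and 114 CPM, while IP stood at 228 to 299 CPM fed and 116 to 194 CPM fasted. Its supernatant level was 13.8% of IP fed and 68.9% fasted, and its difference was -2.31 ± 0.42 (adjusted p = 0.00297). Abca4, a lipid transporter, rose from 1.52 to 2.24 CPM up to 4.96 to 8.19 CPM in supernatant, a difference of -1.75 ± 0.45 (adjusted p = 0.0289) whose call ended without any of 7 libraries. Of the 63 genes of this pattern, 30 were higher in supernatant than in IP in fed mice and 42 in fasted mice; over all tested genes those shares were 50.9% and 50.1%.

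Falls that lay in supernatant were few, and named genes of DNA replication and mitosis stood among them. Ccne2 (chr4:11191351-11204779, + strand), the E2 cyclin of S phase entry, fell in supernatant from 2.39, 2.47 and 2.16 CPM to 0.347, 0.572 and 0.485 CPM and was at 1.15 to 1.54 CPM fed and 1.2 to 3.31 CPM fasted in IP. The fractions thus differed by 3.07 ± 0.48 (adjusted p = 0.00342), but 41.9% of its span overlaps Ints8 on the other strand. Tacc3, a spindle protein, fell from 8.05, 8.20 and 8.46 CPM to 4.60, 5.43 and 4.34 CPM in supernatant with IP at 2.31 to 2.96 CPM throughout, a difference of 0.93 ± 0.13 (adjusted p = 0.0149). Mcm6, a subunit of the replicative helicase, fell from 16.5, 19.7 and 16.6 CPM to 10.8, 11 and 10.9 CPM in supernatant, a difference of 0.94 ± 0.19 (adjusted p = 0.0172) whose call ended without supernatant library A of fasted mice.

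Brca1, a repair gene of S phase, had a difference of 1.33 ± 0.42 (adjusted p = 0.0481) and Cdc45, a helicase cofactor, one of 0.95 ± 0.23 (adjusted p = 0.0445), and both calls ended without any of 10 of the 12 libraries. With the mouse as a replicate block Brca1 was not called (adjusted p = 0.0874). Phf21b, a chromatin reader, had a difference of 0.96 ± 0.22 (adjusted p = 0.0177), and Nfxl1, a zinc finger gene, one of 0.98 ± 0.29 (adjusted p = 0.0356) that ended without any of 8 libraries and with the block. Ccne1, the E1 cyclin, had a difference of 2.53 ± 0.64 (adjusted p = 0.0291), not called with the block (adjusted p = 0.0566) or without any of 9 libraries.

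Cell cycle genes are given beside a difference called higher for 3.71% and lower for 5.83% of all tested genes. Of 22 tested, 10 were called lower and 1 higher in IP, and 0 higher and 9 lower in supernatant. With the replicate block the difference was called higher for 2 and lower for 3 of them, and without it higher for 4 and lower for 1. The 1 called lower without the block was Mki67, the Ki-67 proliferation marker, at 2.14, 4.94 and 2.89 CPM in IP of fed and 0.382 to 0.440 CPM in IP of fasted mice, against 59.0, 75.0 and 48.5 CPM and 23.1, 39.7 and 25.9 CPM in supernatant. Its difference of -1.91 ± 0.46 (adjusted p = 0.0275) lost its call without any of 4 libraries: IP libraries A and C of fasted mice and supernatant libraries A and C of fed mice, and with IP of frozen liver it was -1.15 (adjusted p = 0.0898). IP held 5.46% of the supernatant level of Mki67 in fed mice and 1.39% in fasted mice, beside 3.99% and 1.74% for the median endothelial marker, and the part of other nuclei in its IP level was not tested.

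The 34 genes with opposite called changes were led by Ccl9 (chr11:83572917-83578636, - strand), a chemokine of myeloid cells. In IP it was at 5.92, 8.43 and 3.56 CPM fed and 1.90, 1.46 and 2.96 CPM fasted; in supernatant it was at 0.978, 1.13 and 0.969 CPM fed and 13.7, 6.16 and 9.59 CPM fasted. Neither pair of groups overlapped, and supernatant moved from below IP to above it. The log2 difference was -4.76 ± 0.57 (adjusted p = 0.000727). Cxcl1, a neutrophil-attracting chemokine, also fell in IP and rose in supernatant. IP was at 4.80, 8.20 and 5.90 CPM fed and 1.71, 1.36 and 1.59 CPM fasted. Supernatant was at 0.323 to 0.386 CPM fed and 2.4, 0.468 and 1.81 CPM fasted. The supernatant mean of Cxcl1 went from 5.60% of IP to 101%, with library B of fasted mice below all IP libraries. Its difference was -4.15 ± 0.73 (adjusted p = 0.00335).

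Grid1 (chr14:34820136-35581115, + strand), an orphan glutamate receptor subunit, fell in IP from 273, 332 and 304 CPM to 42.8, 59.1 and 54.0 CPM and rose in supernatant from 45.4, 31.4 and 40.9 CPM to 59.1, 65.9 and 66.0 CPM. Its log2 difference of -3.24 ± 0.23 (adjusted p = 8.57e-05) joined a fall of 2.54 in IP and a rise of 0.70 in supernatant. Shroom2 (chrX:152609509-152769486, - strand), an actin-binding protein of endothelium and epithelium, went from 248, 252 and 347 CPM to 165, 153 and 163 CPM in IP and from 68.9, 53.4 and 69.7 CPM to 154, 174 and 224 CPM in supernatant, a difference of -2.34 ± 0.26 (adjusted p = 0.000504). Tcn2, the transcobalamin that carries vitamin B12, went from 51.9, 63.9 and 53.9 CPM to 25.1, 24.4 and 20.8 CPM in IP and from 66.1, 49.5 and 49.2 CPM to 91.0, 92.5 and 106 CPM in supernatant, a difference of -2.08 ± 0.20 (adjusted p = 0.000415).

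Ung, the uracil glycosylase of base excision repair, took the reverse course: it rose in IP from 2.31, 2.45 and 1.81 CPM to 7.10, 4.56 and 7.22 CPM and fell in supernatant from 1.13 to 1.45 CPM down to 0.572 to 0.671 CPM, a difference of 2.54 ± 0.28 (adjusted p = 0.00155). Tfrc, the transferrin receptor that imports iron, did likewise. Its IP levels were 50.0, 41.8 and 36.1 CPM fed and 72.8, 48.0 and 73.6 CPM fasted, which overlap, and its supernatant levels were 42.5, 51.0 and 49.5 CPM fed and 24.1, 22.2 and 22.2 CPM fasted. The difference was 1.66 ± 0.26 (adjusted p = 0.00233). With IP of frozen liver in place of IP of fresh liver, all 34 genes were called again in the same direction, though that version shares the supernatant libraries and the mice. The other patterns kept fewer calls there: 523 of 706 tested genes that fell in IP and 357 of 474 that rose in IP. It was 44 of 63 for rises in supernatant, 18 of 25 for falls in supernatant and 45 of 64 with neither fraction called.

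Lipid and iron handling of macrophages was one of several immune lists examined. Of 23 tested genes 2 had a called higher difference and 2 a lower one, with 2 higher and 3 lower in IP and 3 higher and 3 lower in supernatant. Over all tested genes the difference was called higher for 3.71% and lower for 5.83%, and no list count was tested against these shares. Lpl, the lipase that frees fatty acids from lipoproteins, was at 38.8, 139 and 206 CPM in supernatant of fed and 18.8, 16.1 and 17.9 CPM in that of fasted mice and at 0.264 to 0.620 CPM in IP. Its log2 difference of 3.24 ± 0.79 (adjusted p = 0.0415) was not called without any of 11 of the 12 libraries, and with IP of frozen liver it was 1.23 (adjusted p = 0.402). Pltp, the phospholipid transfer protein, fell in IP from 48.7, 59.0 and 28.1 CPM to 9.11, 8.82 and 4.74 CPM with supernatant at 150 to 167 CPM fed and 136 to 219 CPM fasted, a difference of -2.69 ± 0.49 (adjusted p = 0.00287). Pltp overlaps Ctsa on the other strand over 8.33% of its span.

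Inflammatory cytokines and NF-kB targets had 2 higher and 4 lower called differences of 27 tested (IP 3 higher and 3 lower, supernatant 5 higher and 1 lower). Vcam1, an adhesion molecule of endothelium and macrophages, rose in supernatant from 55.9, 65.0 and 91.6 CPM to 286, 197 and 289 CPM with IP at 0.604 to 1.40 CPM, a difference of -1.56 ± 0.49 (adjusted p = 0.0402) that ended without any of 8 libraries. Il18, a cytokine of macrophages and epithelia, had a difference of -1.54 ± 0.42 (adjusted p = 0.0203), not called without IP library B of fed mice. Interferon-stimulated genes had 2 higher and 2 lower of 26 (IP 1 higher and 5 lower, supernatant 0 and 2), and 5 and 2 with the replicate block. Irf1, an interferon-induced transcription factor, had a difference of -1.14 ± 0.24 (adjusted p = 0.0104), Gbp3, a guanylate-binding protein, one of -1.04 ± 0.25 (adjusted p = 0.023), and Mx1, an antiviral GTPase, one of 1.81 ± 0.54 (adjusted p = 0.0316). The call of Gbp3 ended without IP library A of fasted mice or supernatant libraries A or C of fed mice, and that of Mx1 without any of 7 libraries. Antigen presentation had 0 higher and 1 lower of 17, Psmb9, an immunoproteasome subunit, at -1.55 ± 0.38 (adjusted p = 0.0144). These list counts stand beside 3.71% called higher and 5.83% called lower over all tested genes.

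Other hepatocyte functions were described by lists as well, beside 3.71% called higher and 5.83% called lower in the difference over all tested genes. Xenobiotic metabolism had 1 higher and 4 lower differences of 21 tested (median -0.88; IP 4 higher and 13 lower, supernatant 1 and 3), and 1 and 11 with the replicate block. Cyp2a5, a coumarin hydroxylase, went from 158, 161 and 118 CPM to 17.7, 18.9 and 21.6 CPM in IP, a difference of -1.87 ± 0.46 (adjusted p = 0.0145), not called without supernatant library A of fasted mice. Gstm1, a glutathione transferase with close copies, had a difference of -1.68 ± 0.42 (adjusted p = 0.0178), not called without supernatant libraries A of fed or A of fasted mice. Sult1a1, a sulfotransferase, was called higher in supernatant (12 to 18.1 CPM fed, 26.0 to 33.6 CPM fasted) and not in IP, a difference of -1.25 ± 0.28 (adjusted p = 0.0118). Its supernatant level was 16.3% of IP fed and 38.6% fasted.

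Bile acid genes had 1 higher and 3 lower of 19 (IP 1 and 7, supernatant 0 and 0), where 3.71% and 5.83% of all tested genes had such a difference. Abcb4, the phospholipid exporter of bile, rose in IP from 796, 681 and 454 CPM to 1576, 1656 and 1491 CPM and stood at 50.4 to 70.8 CPM in every supernatant library, a difference of 1.29 ± 0.31 (adjusted p = 0.0164) that ended without supernatant library A of fasted mice. Slc27a5, which activates bile acids, had a difference of -1.21 ± 0.33 (adjusted p = 0.0259) and Cyp7b1, a hydroxylase of the alternative pathway, one of -0.92 ± 0.23 (adjusted p = 0.0242), each ending without any of 6 libraries. Of 23 urea cycle and amino acid breakdown genes 0 were called higher and 1 lower, Prodh, the proline dehydrogenase, at -1.24 ± 0.32 (adjusted p = 0.024), a call that ended without supernatant library C of fed mice or A or C of fasted mice; 2 were called higher and 5 lower in IP and 0 and 0 in supernatant.

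Stress and early response genes were grouped in 3 lists, beside a difference called higher for 3.71% and lower for 5.83% of all tested genes. Of 26 immediate early genes 1 was called higher and 4 lower (IP 7 and 1, supernatant 4 and 0). Atf3, a stress-induced repressor, was at 1.06, 2.45 and 0.983 CPM in IP of fed and 8.23, 2.68 and 3.15 CPM in IP of fasted mice against 8.41, 14.3 and 16.6 CPM and 7.19 to 7.55 CPM in supernatant, a difference of 2.55 ± 0.71 (adjusted p = 0.0262) that ended without any of 8 libraries. Cyr61, a matricellular protein, had a difference of -2.57 ± 0.56 (adjusted p = 0.0104), falling in IP from 6.01 to 8.95 CPM to 2.29 to 3.55 CPM. Heat shock and chaperone genes had 0 called differences of 14 by edgeR (6 at an unadjusted p under 0.05, 2 higher by DESeq2) but 9 called higher in IP and 0 in supernatant; 3 had a called higher difference with the replicate block. Hsp90aa1, a cytosolic HSP90 chosen after its values were seen, changed by 1.21 in IP and 0.02 in supernatant, and its difference of 1.19 was not called (adjusted p = 0.101). The unfolded protein and ATF4 response had 0 higher and 3 lower of 20 (IP 2 and 6, supernatant 2 and 1): Chac1, which degrades glutathione, at -2.35 ± 0.41 (adjusted p = 0.0112), Xbp1, its chief transcription factor, at -0.69 ± 0.16 (adjusted p = 0.0249), and Pdia4, an oxidoreductase, at -0.64 ± 0.18 (adjusted p = 0.0479). The calls of Xbp1 and Pdia4 ended without any of 6 and of 10 libraries.

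Insulin and IGF signalling had 1 higher and 3 lower of 20 (IP 4 and 4, supernatant 1 and 0). For this and the next lists, the shares over all tested genes were 3.71% higher and 5.83% lower. Pik3r1, the regulatory subunit of PI3 kinase, was lower in IP (448, 458 and 644 CPM to 332, 265 and 257 CPM) and higher in every supernatant library of fasted than of fed mice (498 to 560 CPM to 701 to 765 CPM), where the change of 0.48 was not called (adjusted p = 0.107). Its difference was -1.34 ± 0.21 (adjusted p = 0.00362). Ghr, the growth hormone receptor, had a difference of -0.93 ± 0.28 (adjusted p = 0.0489) that was not called without any of the 12 libraries or with the block. Autophagy and lysosome genes had 0 higher and 2 lower of 23 (IP 2 and 5, supernatant 2 and 0): Fnip2, a folliculin partner that overlaps Gm17359 over 7.30% of its span, at -1.31 ± 0.35 (adjusted p = 0.0233), ending without any of 5 libraries, and Tsc1, the mTORC1 restrainer hamartin, at -0.81 ± 0.12 (adjusted p = 0.00598). Angiocrine and endothelial signalling had 0 higher and 1 lower of 26 (median -0.82; IP 0 and 3, supernatant 2 and 0), Vegfa, the endothelial growth factor, at -0.98 ± 0.29 (adjusted p = 0.0379), a call that ended without any of 10 libraries and with the block.

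The markers of cell types were themselves tested for the difference, which was called higher for 3.71% and lower for 5.83% of all tested genes. Hepatocyte markers had 0 higher and 0 lower of 24, with a median of -0.42 (IP 0.13, supernatant 0.44), and 0 and 2 with the replicate block; 3 had an unadjusted p under 0.05 and DESeq2 called 3 lower. Endothelial markers had 0 higher and 2 lower of 22, with all 22 differences below 0 and a median of -1.07 (IP -0.66, supernatant 0.39). An unadjusted p under 0.05 was found for 11 of the 22, DESeq2 called 5 lower, and with IP of frozen in place of fresh liver 11 were called lower. Tie1, an angiopoietin co-receptor, had a difference of -1.59 ± 0.36 (adjusted p = 0.0195) and Fcgr2b, the Fc receptor of sinusoidal endothelium, one of -1.89 ± 0.49 (adjusted p = 0.0132), with IP at 0.382 to 1.51 CPM for Tie1 and 1.40 to 9.24 CPM for Fcgr2b and supernatant at 19.3 CPM or more for both. Kupffer cell and macrophage markers had 2 higher and 0 lower of 20 (median 0.12). Cd68, a lysosomal macrophage protein, was at 0.725 to 1.52 CPM in IP of fed and 2.14 to 3.69 CPM in IP of fasted mice against 13.9 to 21.3 CPM in supernatant, a difference of 1.52 ± 0.40 (adjusted p = 0.0169). Fcer1g, an Fc receptor chain, had a difference of 1.47 ± 0.21 (adjusted p = 0.00196). With IP of frozen liver it was 0.68 and not called (adjusted p = 0.104).

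Stellate cell and fibroblast markers had 0 called of 18 by edgeR or DESeq2, with 0 at an unadjusted p under 0.05 (median -0.44), cholangiocyte markers 0 higher and 1 lower of 8 (median -0.96), lymphocyte markers 1 higher and 0 lower of 19 (median -0.46) and neutrophil and erythroid markers 0 higher and 1 lower of 5 (median -0.29). Tspan8, a tetraspanin of bile duct cells, had a difference of -2.67 ± 0.58 (adjusted p = 0.0425) at levels of 1.06 CPM or less in all libraries, not called with the block or without any of 8 libraries. Cd247, the zeta chain of the T cell receptor, rose in IP from 0.770 to 1.67 CPM up to 3.72 to 9.93 CPM with supernatant at 45.9 to 63.1 CPM, a difference of 2.4 ± 0.56 (adjusted p = 0.00763), and it overlaps Pou2f1 on the other strand over 7.28% of its span. Alas2, the erythroid heme synthesis enzyme, was at 2.95 to 3.90 CPM in IP of fed and 0.825 to 1.18 CPM in IP of fasted mice, above supernatant (0.180 to 0.494 CPM), a difference of -2.46 ± 0.32 (adjusted p = 0.00362). The part of a shift in cell types in the differences of genes low in one fraction was not tested.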

How the data were processed

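The authors deposited raw counts per gene for each library, whole numbers for 20105 genes. The length listed for each gene is its whole span from start to end, introns included. How reads were counted, and whether by strand, is not stated in any source used here, so overlapping genes and near-identical copies are uncertain. STAR 2.4.2a, DESeq2 1.24.0 and mm10 were used, per the submitters' processing notes. A further 6 columns of the table fit no sample label and were left out of every step.

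The 12 libraries of 4 groups were fitted together with edgeR 4.0.16 in R 4.3.3 (TMM scaling, filterByExpr by group, glmQLFTest) and 3 contrasts were taken from that fit: fasting in IP, fasting in supernatant and their difference. Standard errors come from group variances of log2 CPM (prior count 2) and take libraries as independent. Fits were also run on simulated counts. These had independent libraries, a single fixed spread and only genes above 1 CPM in each group. Mouse pairing and genes of low count were therefore not covered. Coordinates are 1-based on mm10.

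Genes named are the 6 largest called differences of each of 5 patterns (all but the one with neither change called), among genes with a mean of at least 1 CPM in each fraction in some feeding state and of at least 5 CPM in some group, plus the 3 largest called differences of each of 28 lists (7 of markers, 21 of pathways); the list size counts the members tested. Gene models named Gm or Rik were left out, and some genes and lists are not reported here. The lists and members were chosen with earlier results of these data known.

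Column letters stand in no label. Deviations from group means correlated between the IP and supernatant libraries of the same letter at 0.127 to 0.423 (6 pairs, 8674 genes) and between different letters at -0.362 to 0.0151 (12 pairs), so the letter within a feeding state served as the mouse in the replicate block. Chi-square per gene between libraries of a group was 16.7 or more, so none was counted as a duplicate. Alternatives were other scalings, filters and tools (limma 3.58.1, DESeq2 1.42.0), the block, other sets of groups, leaving out each library or mouse, and, chosen after seeing the data, IP of frozen in place of fresh liver.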

Additional observations from a re-analysis of the deposited data

Results flagged for a closer look

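The difference of the fasting response between fractions was itself tested, and 532 genes were called higher and 835 lower by edgeR at an adjusted p under 0.05, 1367 in all. The genes chosen by the naming rule are among them, and the log2 difference of each is given once here; genes added after their values were seen are not repeated.

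Of these genes that fell in IP, the log2 difference was -7.32 for Chrna4, -6.96 for Pnpla3, -5.31 for Fabp5, -4.79 for Thrsp, -3.82 for Mup3, -3.79 for Igfbp5, -3.67 for Scd1, -3.53 for Mvd and -3.04 for Dbp. It was -2.98 for Insig1, -2.90 for Fdps, -2.80 for Bhlhe41, -2.69 for Pltp, -2.57 for Cyr61, -2.46 for Alas2, -2.35 for Chac1, -1.91 for Mki67 and -1.89 for Fcgr2b. Next came -1.87 for Cyp2a5, -1.79 for Per3, -1.68 for Gstm1, -1.59 for Tie1, -1.55 for Psmb9, -1.54 for Il18, -1.34 for Pik3r1, -1.31 for Fnip2 and -1.24 for Prodh. Then followed -1.21 for Slc27a5, -1.14 for Irf1, -1.04 for Gbp3, -0.98 for Vegfa, -0.93 for Ghr, -0.92 for Cyp7b1, -0.81 for Tsc1, -0.69 for Xbp1 and -0.64 for Pdia4. Among those that rose in IP it was 4.33 for Slc41a3, 4.21 for Gadd45b, 4.17 for Cbfa2t3, 3.86 for Mtl5, 3.61 for Dusp8, 3.20 for Txnip, 3.18 for Acot1 and 3.12 for Acot2. It was 2.55 for Atf3, 2.4 for Cd247, 1.52 for Cd68, 1.47 for Fcer1g, 1.32 for Decr1, 1.30 for Foxo1 and 1.29 for Abcb4. For genes whose rise lay in supernatant the log2 difference was -5.0 for Ddit4, -2.67 for Tspan8, -2.31 for Slco2b1, -2.27 for Dusp1, -2.11 for Aspa, -2.0 for Fbxo32, -1.75 for Abca4, -1.56 for Vcam1 and -1.25 for Sult1a1. For genes whose fall lay in supernatant it was 3.24 for Lpl, 3.07 for Ccne2, 2.53 for Ccne1, 1.33 for Brca1, 0.98 for Nfxl1, 0.96 for Phf21b, 0.95 for Cdc45, 0.94 for Mcm6 and 0.93 for Tacc3. Where both fractions were called in opposite directions, the log2 difference was -4.76 for Ccl9, -4.15 for Cxcl1, -3.24 for Grid1, 2.54 for Ung, -2.34 for Shroom2, -2.08 for Tcn2 and 1.66 for Tfrc. With neither fraction called on its own, it was 1.81 for Mx1.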

How the results depend on the processing

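The 1367 called differences became 2340 with DESeq2, 1215 with limma-voom, 1330 with library size alone, 1225 with no filter, 1485 with at least 1 CPM in each group and 1296 with IP of frozen liver, of which 1021 were shared with the 1367. With the mouse as a replicate block 1464 were called, 1145 of them shared; the block cannot be fitted for fasting within a fraction, where each mouse has 1 feeding state. Leaving out a library or a mouse gave 357 to 1485 called differences, 2558 to 4170 changes in IP and 162 to 705 in supernatant; an arm left with 2 libraries is assumed to vary like the others. The supernatant count of 561 became 1256 with DESeq2, 308 with at least 1 CPM in each group and 866 with its own 2 groups alone. Library size alone moved the share of higher calls from 41.7 to 54.4% in IP and from 54.4 to 64.6% in supernatant. Causes were not tested. Of 77 named genes none reversed, 33 kept their call under every alternative listed at the start, 6 lost it under the block, which changed no other named gene's call, and 31 lost it without some single library. Without both libraries of a mouse 15 to 37 lost it, with 37 for fasted mouse A. Cd68, Cyr61, Decr1, Fabp5, Fcgr2b, Fdps, Foxo1, Irf1, Phf21b, Psmb9, Sult1a1, Tacc3 and Tie1 kept it without each single library but not without some mouse. With limma-voom 13 lost it, among them Chrna4, Thrsp, Scd1 and Dusp1. Frozen IP ended the call of 15: Abca4, Brca1, Fcer1g, Gbp3, Lpl, Mcm6, Mki67, Mx1, Pdia4, Psmb9, Sult1a1, Tacc3, Vcam1, Vegfa and Xbp1.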
